A study of Mus musculus with 2 samples.

Results

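The genes described here are the mouse Wnt ligands, their Frizzled receptors and the secreted or membrane proteins that tune them. They were chosen by symbol: every annotated gene named Wnt, Fzd, Sfrp, Dkk, Rspo or Lgr with a number of its family, except that of the Lgr genes Lgr4, Lgr5 and Lgr6 were taken and of the Sfrp genes those numbered up to Sfrp5. This gave 44 genes of 55536 annotated, all of them among the 22028 protein-coding genes: 19 Wnt, 10 Fzd, 4 Sfrp, 4 Dkk, 4 Rspo and 3 Lgr genes. Total RNA was sequenced from the left cerebral cortex of male mice of the strain B6CASTF1/J, an F1 hybrid of C57BL/6 and CAST, at an age of 4 days. There was 1 group of 2 libraries, called replicate 1 and replicate 2, with no treatment, no altered gene and no other age or tissue, so that no contrast between conditions can be made. The labels number the males separately but give both libraries the same donor identifier. Differences between the libraries measure only the spread of these 2 samples, part of which may be technical.

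Wnt proteins are secreted, lipid-bearing signals. They are received by Frizzled proteins, a family of seven-pass membrane receptors, together with co-receptors such as Lrp5 and Lrp6. One branch of the pathway stabilises beta-catenin, which enters the nucleus and acts with TCF and LEF factors on target genes. Other branches act on cell polarity and axon growth without beta-catenin. Sfrp proteins carry a Frizzled-like domain and bind Wnts outside the cell, and most Dkk proteins block the Lrp co-receptors. R-spondins bind Lgr receptors and remove the ligases Znrf3 and Rnf43, which otherwise clear Frizzleds from the cell surface. In the developing cortex Wnts are known for roles in progenitor growth, in the guidance of axon tracts and in the formation of brain vessels.

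Replicate 1 was sequenced to 26897687 expected counts and replicate 2 to 29511737. Levels are given as TPM, a share of all transcripts that corrects for transcript length, and as mean ± SD over the 2 libraries (n = 2). All 7 markers of cortical excitatory neurons were detected, with mean levels between 24.1 and 146 TPM. Several marker lists differed between the libraries. All 5 markers of olfactory bulb output neurons and all 5 of olfactory bulb interneurons were called higher in replicate 2 by the binomial test described further on, as were all 6 striatal and all 5 red blood cell markers. With counts scaled by the added spike-ins instead, 4 of the 5 interneuron and 4 of the 6 striatal markers were called higher. With scaling by total counts it was 5 of the 6 striatal markers. The choroid plexus marker Ttr stood at 1.03 TPM in replicate 1 and 32.43 TPM in replicate 2. Of 6 meningeal fibroblast markers, 5 were called lower in replicate 2. In bulk tissue a change in the number of cells of a type cannot be told apart from a change in RNA per cell.

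A gene was counted as detected at 1 TPM or more in each library. By this rule 22 of the 44 genes (50%) were detected, beside 59.4% of the protein-coding genes (13084 of them). A further 5 genes reached 1 TPM in 1 library only: Wnt5b and Dkk2 in replicate 1, and Lgr5, Lgr6 and Sfrp4 in replicate 2. The remaining 17 stayed under 1 TPM in both. The detected genes lay low in the transcriptome, with a median of 5.463 TPM against 17.62 TPM for all detected protein-coding genes. Just 3 genes, Fzd3, Wnt7b and Dkk3, held 49.0% of the summed TPM of all 44. Each of the 3 comes from another family: a receptor, a ligand and a secreted modulator. Their ranges over the libraries overlapped with each other, while that of Dkk3 lay clear of the next gene, Sfrp1. Over the whole order, 34 of the 43 neighbouring pairs overlapped in range and 9 did not.

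**Figure D1:**
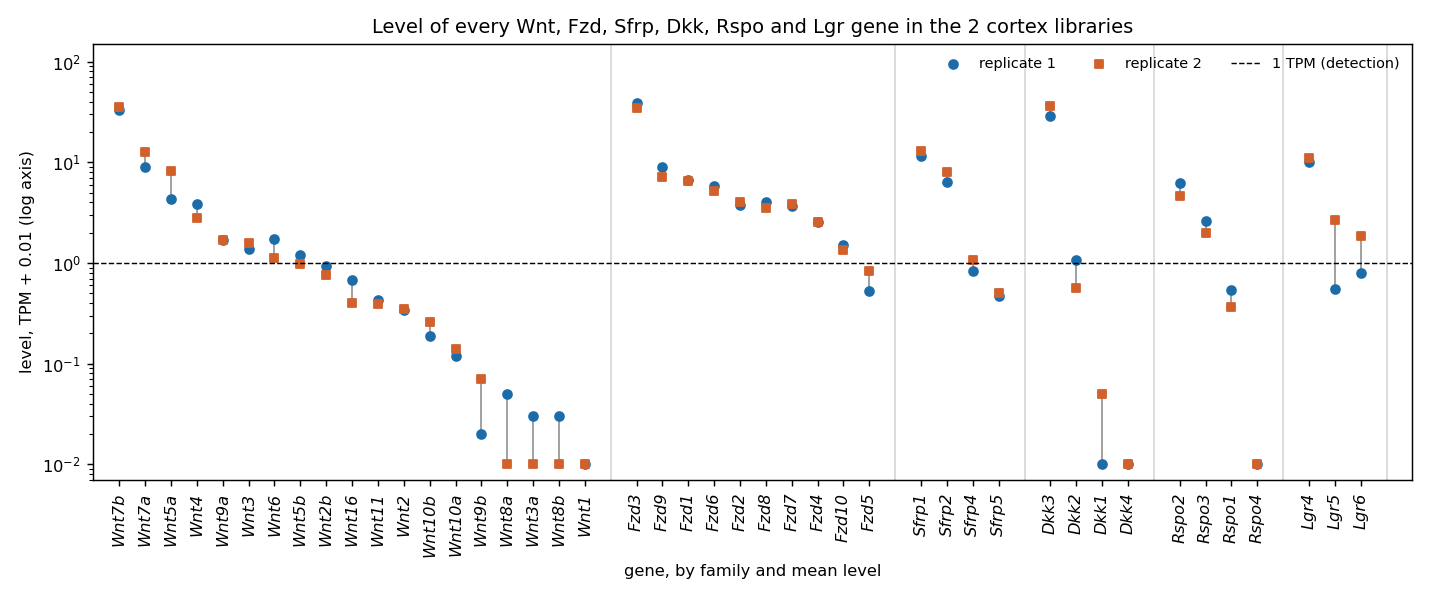
Level of each of the 44 genes as TPM + 0.01 on a log axis, by family and, within a family, by mean level. Circles are replicate 1 and squares replicate 2, a grey line joins them, and the dashed line marks 1 TPM; Fzd3, Wnt7b and Dkk3 stand near 30 to 40 TPM, and Lgr5 and Lgr6 show the 2 libraries on different sides of the line.

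Among the Wnt ligands, 7 of 19 were detected: Wnt7b, Wnt7a, Wnt5a, Wnt4, Wnt9a, Wnt3 and Wnt6. Wnt7b dominated. It stood at 32.8 TPM in replicate 1 and 35.68 TPM in replicate 2, a mean of 34.24 ± 2.04 TPM, at percentile 71.1 of detected protein-coding genes. It made up 55.8% of the summed Wnt TPM of replicate 1 and 53.1% of that of replicate 2. Wnt7b (ENSMUSG00000022382.15, mm10 chr15:85535437-85582473, minus strand) is a ligand of neural cells that, with Wnt7a, is known for its action on the endothelium of growing brain vessels.

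Wnt7a was listed at 9.04 TPM in replicate 1 and 12.81 TPM in replicate 2, well below Wnt7b in both. A large share of that level rested on very few reads, as described below, and its coding transcript alone stood at 4.87 and 6.67 TPM. Wnt5a, the best known ligand of the branches that do not use beta-catenin, stood at 4.34 TPM in replicate 1 and 8.25 TPM in replicate 2. Wnt4, a ligand with roles in axon guidance and organ formation, stood at 3.87 and 2.79 TPM. By mean level Wnt7a and Wnt5a came next after Wnt7b and were followed by Wnt4. Wnt7a and Wnt5a are not ordered by these data: their ranges lay apart here, but in a second set of transcript estimates deposited for the same libraries Wnt7a was at 7.65 and 10.2 TPM and Wnt5a at 6.72 and 11.03 TPM.

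The other detected ligands were close to the threshold. Wnt9a stood at 1.68 and 1.69 TPM, Wnt3 at 1.38 and 1.57 TPM, and Wnt6 at 1.73 and 1.11 TPM. The range of Wnt6 took in those of Wnt9a and Wnt3, so its place among them is not settled. Wnt5b, a close relative of Wnt5a, was at 1.19 and 0.96 TPM, and Wnt2b, a ligand of the embryonic cortical hem, at 0.93 and 0.75 TPM.

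Lower still, with levels between 0.11 and 0.67 TPM in either library, were Wnt16, Wnt11, Wnt2, Wnt10b and Wnt10a. Wnt16 had 19 and 10 reads, Wnt2 had 12 and 14, and Wnt11 had 12 and 13. Wnt10b had 6 and 11 reads, and Wnt10a 1 and 6. Wnt9b had 1 read in replicate 1 and 5 in replicate 2. Wnt3a, Wnt8a and Wnt8b had a single read each, all in replicate 1, and Wnt1 had no read in either library. Wnt3a and Wnt8b are signals of the embryonic cortical hem and Wnt1 one of the midbrain. A count of 0 allows up to 3 counts, or 0.112 CPM (counts in a library scaled to a common total) in replicate 1 and 0.102 CPM in replicate 2, so that these genes were not detectable at this depth. This limit covers counting error only.

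Several Wnt genes lie side by side in the genome, and the members of such pairs differed in level. There were 4 pairs of Wnt genes under 100000 bases apart with no protein-coding gene between. On chromosome 11, Wnt3a and Wnt9a lie 16175 bases apart and are read away from each other, as are Wnt9b and Wnt3, 24328 bases apart. Wnt9a was detected and Wnt3a was at 0.02 and 0 TPM. Wnt3 was detected and Wnt9b was at 0.01 and 0.06 TPM. Of the pair on chromosome 1, 6193 bases apart, Wnt6 was detected and Wnt10a was not, whereas on chromosome 15, 11706 bases apart, neither Wnt10b nor Wnt1 was detected. In 3 of the 4 pairs, therefore, 1 ligand was detected and its neighbour was not. The detected ligands of these pairs were close to the threshold of 1 TPM. At the alternative threshold of 2 TPM none of them was detected, so no pair was split.

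The upstream sequences of the 2 pairs on chromosome 11 are shown because each pairs a detected gene with one that was not. They are the 250 bases before the RefSeq start of each gene in GRCm38.p6 (mm10), 5′ to 3′ along the gene's own strand, with each CpG in capitals. Wnt9a is chr11:59306680-59306929 on the plus strand, Wnt3a chr11:59290752-59291001 on the minus strand, Wnt3 chr11:103773925-103774174 on the plus strand and Wnt9b chr11:103749822-103750071 on the minus strand.
Wnt9a: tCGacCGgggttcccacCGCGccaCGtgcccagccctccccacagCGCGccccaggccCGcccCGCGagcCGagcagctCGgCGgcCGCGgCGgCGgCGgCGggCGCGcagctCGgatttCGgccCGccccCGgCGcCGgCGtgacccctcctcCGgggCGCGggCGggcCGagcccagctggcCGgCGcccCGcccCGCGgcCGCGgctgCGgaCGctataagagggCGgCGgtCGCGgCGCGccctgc
Wnt3a: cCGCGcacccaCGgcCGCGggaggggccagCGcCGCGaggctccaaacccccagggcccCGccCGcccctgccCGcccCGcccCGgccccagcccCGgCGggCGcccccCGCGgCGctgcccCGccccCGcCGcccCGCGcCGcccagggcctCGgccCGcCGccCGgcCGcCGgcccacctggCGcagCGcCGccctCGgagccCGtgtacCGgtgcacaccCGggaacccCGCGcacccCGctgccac
Wnt3: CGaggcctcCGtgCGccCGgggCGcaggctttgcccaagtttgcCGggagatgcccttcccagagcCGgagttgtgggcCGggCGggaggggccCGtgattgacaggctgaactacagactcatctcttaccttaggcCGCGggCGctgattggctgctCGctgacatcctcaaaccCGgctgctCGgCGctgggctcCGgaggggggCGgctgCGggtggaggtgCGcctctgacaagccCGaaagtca
Wnt9b: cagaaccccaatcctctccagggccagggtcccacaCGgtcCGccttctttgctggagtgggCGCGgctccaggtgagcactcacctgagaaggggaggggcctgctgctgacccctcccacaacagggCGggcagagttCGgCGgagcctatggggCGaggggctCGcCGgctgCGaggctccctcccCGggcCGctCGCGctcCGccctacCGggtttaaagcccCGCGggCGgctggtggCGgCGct

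Both members of a pair were rich in CpG. Wnt9a had 48 CpG in these 250 bases at 84.4% G and C, and Wnt3a 41 at 87.6%. Wnt3 and Wnt9b had 22 each, at 68.0% and 72.0%. The pairs were shown because their members differed in level, and the part of CpG content in that difference was not tested. Windows of 300 bases, which add the first 50 of the transcript, were at hand for 29 of the 44 genes, and 10 detected genes had none: Fzd3, Wnt7b, Dkk3, Sfrp1, Wnt5a, Fzd6, Rspo2, Fzd2, Fzd8 and Rspo3. The 12 detected genes among them had a median of 31.5 CpG (16 to 58) and the 17 others 26 (6 to 45). Over all protein-coding genes the medians were 21 for 10137 detected and 3 for 6385 not detected. The motifs CTTTGAT and CTTTGAA, common forms of the TCF and LEF site, were looked for on both strands. They were in the windows of Wnt5b, Wnt11 and Dkk1, 3 of 29 (10.3%), beside 8.69% of all protein-coding genes. Wnt5b has 3 windows and Wnt11 has 2, which gives more places to match. Of the 12 detected genes 0 had a match, beside 6.79% of detected protein-coding genes. Of the 17 others 3 did (17.6%), beside 11.7% of those not detected. A match is a description of letters and not a bound site.

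Of the 10 Frizzled receptors, 9 were detected, the largest share of any of the 6 families. Fzd3 led. It stood at 39.04 TPM in replicate 1 and 34.3 TPM in replicate 2, a mean of 36.67 ± 3.35 TPM, and held 51.1% and 49.5% of the summed Fzd TPM. It was the highest of all 44 genes by mean level, and had 8152 and 7502 reads. Fzd3 (ENSMUSG00000007989.7, mm10 chr14:65192449-65262463, minus strand) is known from mouse mutants as a receptor that forebrain axon tracts need, acting with the cadherin Celsr3.

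The next Frizzleds were a step lower. Fzd9 stood at 8.97 and 7.12 TPM, Fzd1 at 6.61 and 6.55 TPM, and Fzd6 at 5.83 and 5.18 TPM. Fzd6 is the receptor most akin to Fzd3 and acts with it in planar polarity. A group of 3 receptors shared the next level, with Fzd2 at 3.72 and 4.06 TPM, Fzd8 at 4.04 and 3.55 TPM, and Fzd7 at 3.68 and 3.83 TPM. Their ranges overlapped, so the data do not order them. On coding transcripts alone Fzd6, at 3.82 and 3.89 TPM, lay within the range of this group. Fzd4, which also receives the vascular ligand norrin, stood at 2.54 and 2.56 TPM, and Fzd10 at 1.51 and 1.33 TPM. Fzd5, at 0.52 and 0.83 TPM, was the single Frizzled not detected. The summed TPM was 76.46 and 69.31 for the receptors and 58.76 and 67.16 for the ligands.

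The secreted inhibitors were carried by few genes. Sfrp1, made by radial glia in the embryonic cortex, stood at 11.52 and 12.84 TPM and held 60.2% and 57.5% of the Sfrp sum. Sfrp2 stood at 6.35 and 7.93 TPM. Sfrp4 was at 0.82 and 1.06 TPM, and Sfrp5 at 0.46 and 0.49 TPM. The gene often called Sfrp3 bears the symbol Frzb and is described with the other pathway genes.

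Dkk3 made up nearly the whole of its family, with 96.5% of the Dkk sum in replicate 1 and 98.4% in replicate 2. It stood at 29.19 and 36.69 TPM, a mean of 32.94 ± 5.3 TPM. Dkk3 (ENSMUSG00000030772.6, mm10 chr7:112116017-112159057, minus strand) is the divergent member of the family and is not known as a block of Lrp co-receptors in the way of Dkk1. The members that do bind Lrp co-receptors were low: Dkk2 was at 1.06 and 0.56 TPM, Dkk1 had 0 and 2 reads, and Dkk4 had none. In the second set of estimates, Dkk1 had 9.34 and 11.5 estimated counts and Dkk4 had 9 and 10, which is still under 1 TPM. Dkk1 and Dkk4 were thus low in both, but their counts depended on the quantification.

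R-spondins and their receptors were also uneven. Rspo2 stood at 6.24 and 4.6 TPM, 66.5% of the Rspo sum in each library, and Rspo3 at 2.62 and 1.96 TPM. Rspo1 was at 0.53 and 0.36 TPM with 11 and 12 reads, and Rspo4 had no read. Of their receptors Lgr4, which is broadly expressed in many tissues, stood at 10.05 and 10.95 TPM. It held 88.3% of the Lgr sum in replicate 1 and 70.8% in replicate 2. Lgr5, a stem cell marker of the gut, and Lgr6 of the skin were far lower and, unlike Lgr4, far apart between the libraries.

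Each gene with 10 or more counts in total was then compared between the libraries by a two-sided exact binomial test on rounded counts. The share expected in each library came from library sizes scaled by TMM. Benjamini-Hochberg adjustment was made over all 20385 genes tested, with a threshold of 0.05. This test compares the 2 libraries and not conditions. Of the 44 genes, 35 were tested and 13 were called (37.1%), beside 26.7% of all genes tested. The latter include non-coding genes, whereas all 44 are protein-coding. Among protein-coding genes tested alone, 4681 of 15289 were called, and again 13 of the 35 members. In replicate 2, 9 were called higher, beside 13.9% of all genes, and 4 lower, beside 12.8%. The other 22 were not called, and 9 had fewer than 10 counts. The median log2 ratio of replicate 2 over replicate 1 was 0.084 over the 34 members with 10 or more counts in each library. It was -0.001, with an SD of 0.353, over all 17993 such genes. Spike-in scaling moved the median of all genes by -0.147. Of all calls 52.1% were higher in replicate 2 with TMM, 41.9% with total counts and 10.5% with spike-ins. Among the 13 members, Wnt7b, Sfrp1, Sfrp2 and Lgr4 were not called with spike-in scaling, and the other 9 kept call and direction.

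**Figure D2:**
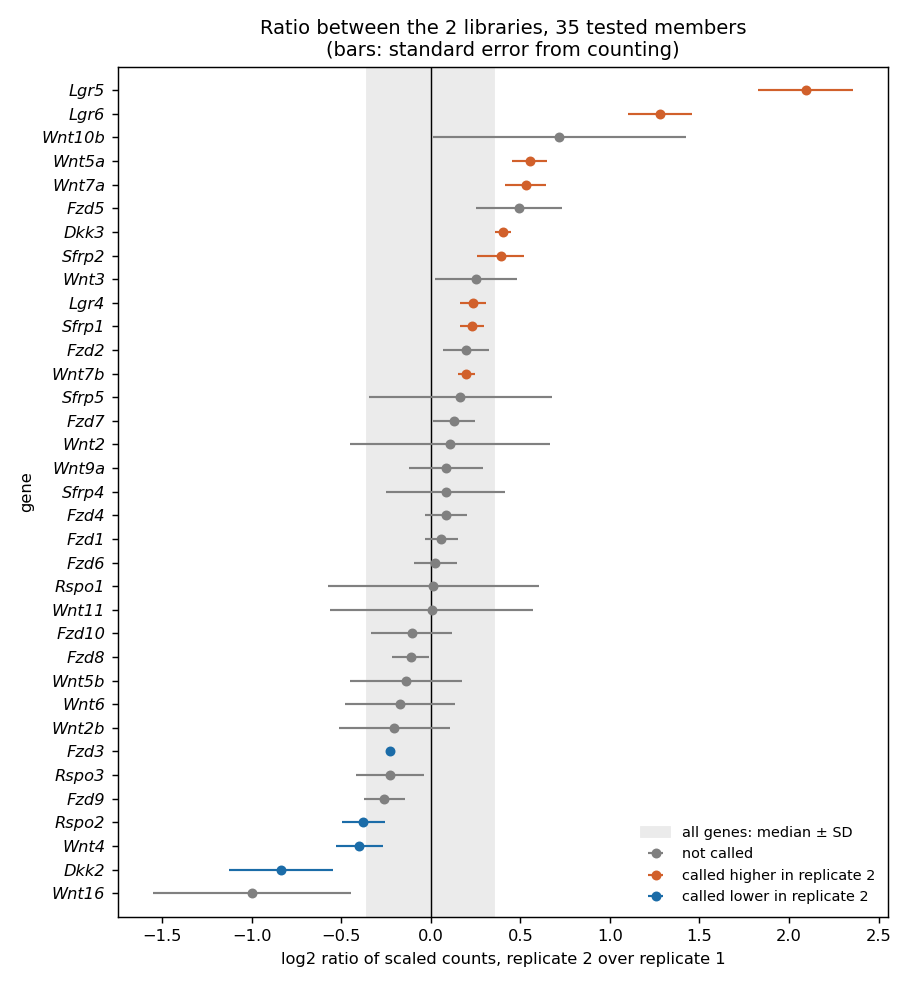
Log2 ratio of scaled counts, replicate 2 over replicate 1, for the 35 tested genes with the standard error from counting as bars. Orange marks genes called higher and blue genes called lower in replicate 2, and the grey band is the median ± SD of all genes; Lgr5 and Lgr6 lie far to the right of the band at 2.09 and 1.28.

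The 2 largest called differences were in the receptors Lgr5 and Lgr6. Lgr5 (ENSMUSG00000020140.15, mm10 chr10:115450311-115587780, minus strand) had 36 reads or 0.54 TPM in replicate 1 and 167 reads or 2.67 TPM in replicate 2. Its log2 ratio was 2.09 (SE 0.26; adjusted p = 1.27e-17, exact binomial test), and 0.721% of tested genes had a larger absolute ratio. Its TPM depends on the transcripts counted, since its coding transcripts alone stood at 0.34 and 1.29 TPM, and those of other classes took 51.5% of its TPM in replicate 2 on 31.1% of its counts. Lgr6 (ENSMUSG00000042793.13, mm10 chr1:134983301-135105276, minus strand) had 89 reads or 0.79 TPM and 233 reads or 1.84 TPM. Its log2 ratio was 1.28 (SE 0.18; adjusted p = 3.07e-12, exact binomial test), though its deposited TPM intervals overlapped, at 0.699 to 1.99 and 1.65 to 2.78 TPM. Lgr4 was also called higher, but by 0.24 (SE 0.07; adjusted p = 0.00472, exact binomial test). The Lgr sum was 11.38 TPM in replicate 1 and 15.46 TPM in replicate 2, and all 3 receptors were higher in replicate 2.

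Markers of the olfactory bulb moved in the same direction as Lgr5 and Lgr6. The summed TPM of the 5 output neuron markers was 12.57 in replicate 1 and 44.87 in replicate 2, and that of the 5 interneuron markers 56.09 and 100.1. None of these 10 markers was at 0 in either library. Cdhr1, a cadherin of mitral and tufted cells, stood at 5.73 and 29.31 TPM, with a log2 ratio of 2.43. The 6 striatal markers summed to 81.61 and 121.8 TPM, and the 5 red blood cell markers to 214.8 and 455.8 TPM. The 7 choroid plexus markers summed to 3.77 and 36.26 TPM, most of the latter from Ttr alone, at 32.43 TPM. Of these 7 markers 5 were tested: Ttr and Clic6 were called higher and 3 were not called. Of the markers of other cells, 4 of 5 for astrocytes were called higher and 1 lower, 3 of 4 for oligodendrocyte precursors lower and 1 higher, and 2 of 5 for radial glia and dividing cells higher and 1 lower. A single marker each was called higher for Cajal-Retzius cells, thalamus and mural cells, and none was called for hippocampus or microglia. With spike-in scaling 2 astrocyte markers were called higher, none was higher and 1 lower for thalamus, and none was higher and 2 lower for mural cells. The mural marker was not called with total counts either. The counts for radial glia and dividing cells ranged over the alternatives from 1 to 3 higher and from 0 to 2 lower. The part of these markers in the Lgr5 and Lgr6 results was not tested.

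**Figure D3:**
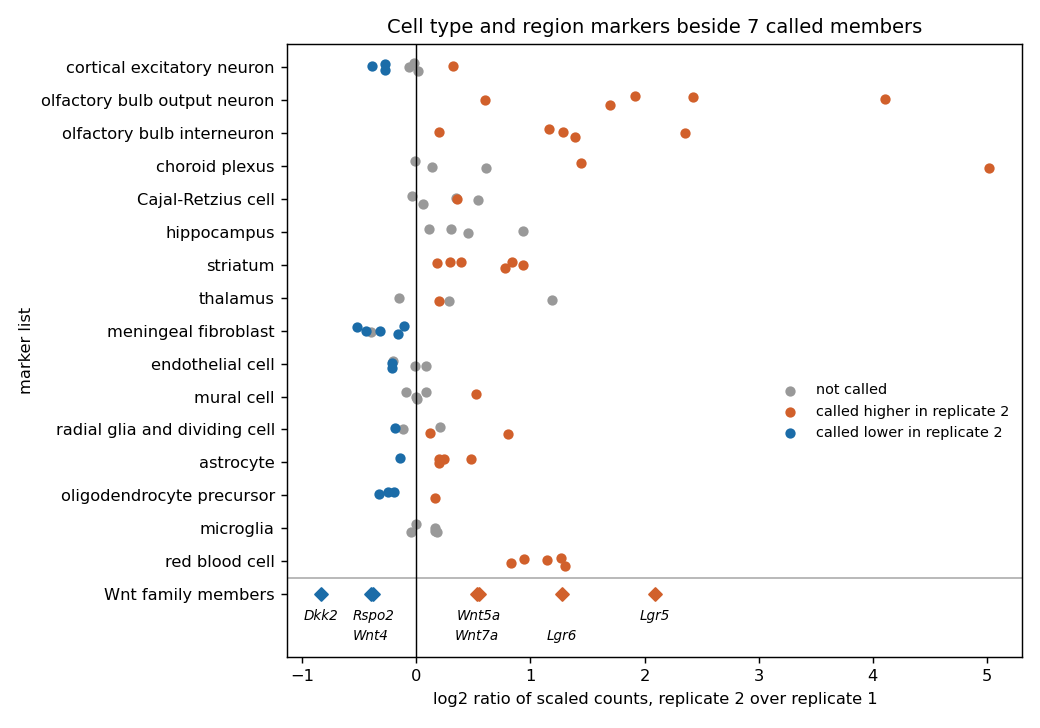
Log2 ratio, replicate 2 over replicate 1, of each marker gene with 10 or more counts in total, by list, above a bottom row with 7 of the 13 called Wnt family genes as diamonds. Orange is called higher, blue called lower and grey not called. Both olfactory bulb lists lie to the right of 0, as do the striatal and red blood cell lists and Lgr5 and Lgr6. The meningeal fibroblast list lies to the left, as do Wnt4, Rspo2 and Dkk2.

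Among the ligands 3 were called higher in replicate 2. Wnt5a had 362 and 571 reads, a log2 ratio of 0.55 (SE 0.10; adjusted p = 1.69e-07, exact binomial test). Wnt7a had 269 and 418 reads, a log2 ratio of 0.53 (SE 0.11; adjusted p = 2.51e-05, exact binomial test). Wnt7b differed less, with 1655 and 2041 reads and a log2 ratio of 0.20 (SE 0.05; adjusted p = 0.000315, exact binomial test). For Wnt5a and Wnt7a too, the olfactory bulb and striatal sums above moved the same way, and their part was not tested. The deposited TPM intervals of both genes overlapped between the libraries: 4.1 to 7.23 and 6.84 to 10.8 TPM for Wnt5a, and 6.75 to 12.1 and 10 to 16 TPM for Wnt7a. Of the 13 members called, 8 had overlapping intervals, and those of Wnt4, Dkk2, Dkk3, Rspo2 and Lgr5 lay apart. The headers give neither the level of these intervals nor what they take into account. The test on gene counts takes in counting error alone.

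Of the secreted modulators, Dkk3 had 1620 and 2304 reads and was called higher with a log2 ratio of 0.40 (SE 0.05; adjusted p = 2.43e-16, exact binomial test). Sfrp1 and Sfrp2 were called higher as well, by log2 ratios of 0.23 and 0.39 (adjusted p = 0.00353 and 0.0132, exact binomial test). With spike-in scaling these came to 0.083 and 0.245, and neither was called (adjusted p = 0.377 and 0.148, exact binomial test). Both kept their direction, and the call rested on how the libraries were scaled.

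The 4 genes called lower in replicate 2 came from 4 families. Fzd3 had the smallest difference of these, a log2 ratio of -0.225 (SE 0.02; adjusted p = 1.78e-20, exact binomial test), on the most reads. The cortical excitatory neuron markers summed to 612.3 TPM in replicate 1 and 541.3 TPM in replicate 2, with 3 of 7 called lower and 1 higher, or 5 lower and 1 higher with spike-in scaling. Wnt4 had 270 and 220 reads and a log2 ratio of -0.40 (SE 0.13; adjusted p = 0.0124, exact binomial test). Rspo2 had 325 and 269 reads and a log2 ratio of -0.38 (SE 0.12; adjusted p = 0.00847, exact binomial test). Dkk2 had 65 and 39 reads and a log2 ratio of -0.83 (SE 0.29; adjusted p = 0.0197, exact binomial test). The 6 meningeal fibroblast markers summed to 130.4 TPM in replicate 1 and 96.77 TPM in replicate 2, with none at 0. The part of either marker list in these 4 results was not tested.

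Of the 22 genes tested and not called, Fzd9 had the lowest adjusted p, 0.079 (exact binomial test), at a log2 ratio of -0.26 (SE 0.11). It was called lower with total count scaling (-0.288, adjusted p = 0.0483, exact binomial test) and with spike-in scaling. Fzd1, Fzd4, Fzd6 and Fzd7 had log2 ratios of 0.06, 0.08, 0.03 and 0.13, each with an SE of 0.09 to 0.12. For these 4 receptors, differences were about the size of the counting error. Wnt16, with 29 reads in all, had a log2 ratio of -0.998 but an SE of 0.55, so a difference was not detectable at its depth.

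The choice of transcript had a large effect on the listed level of some ligands. Of the 22 detected genes, 11 have 1 annotated transcript and 11 have more. Of these 11, 7 had the same leading transcript in both libraries and both quantifications, and Wnt5a, Wnt6, Wnt7b and Fzd6 did not. A short transcript turns few reads into a high TPM. For Wnt7a, the processed transcript Wnt7a-202 of 297 bases took 46.13% of the gene's TPM in replicate 1 on 14.06 expected counts, or 5.23% of its counts. In replicate 2 that transcript was at 0, and another of 293 bases, Wnt7a-203, took 47.89% on 22.92 expected counts, or 5.48%. In the second quantification both were at 0 and the coding Wnt7a-201 held the whole level.

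Wnt5a showed the same in part. Transcripts not classed as protein-coding took 33.5% of its TPM in replicate 1 and 41.1% in replicate 2, on 12.2% and 12.9% of its counts. Its TPM in replicate 2 was 1.91 times that in replicate 1, whereas its scaled count was 1.47 times as high and its coding TPM 1.69 times as high. The count ratio is therefore the smallest of the measures given here. For Wnt6, the retained-intron transcript Wnt6-202 took 41.88% in replicate 1 and 0 in replicate 2, and its coding TPM was 1.01 and 1.11. On coding transcripts alone, all the same, 22 members were detected.

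**Figure D4:**
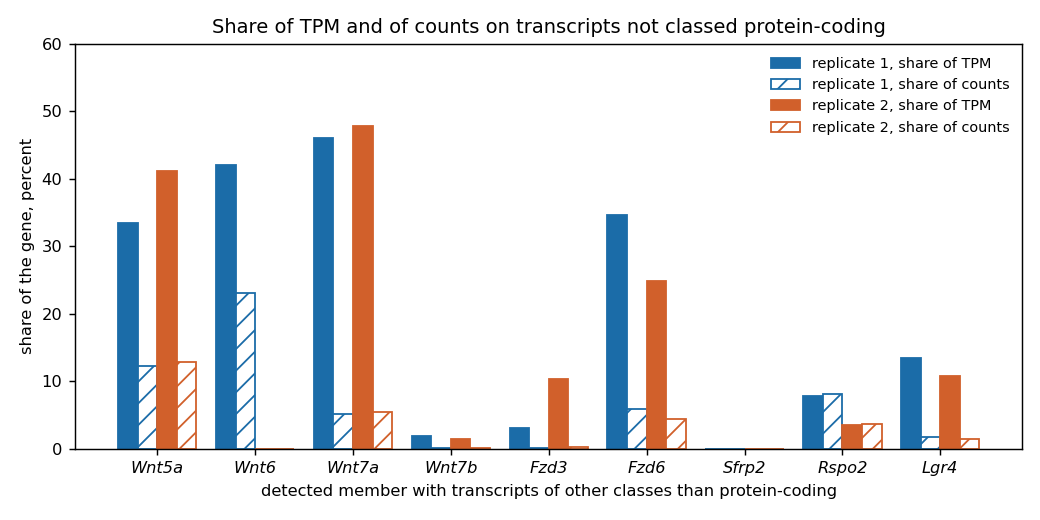
Share of a gene's TPM (filled bars) and of its counts (hatched bars), in percent, on transcripts not classed as protein-coding, for the 9 detected genes that have such transcripts. Blue is replicate 1 and orange replicate 2; for Wnt7a the share is 46.1% and 47.9% of TPM but 5.23% and 5.48% of counts.

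The 3 genes of highest level rested on coding transcripts. Dkk3 has 1 annotated transcript. Fzd3-202, of 12734 bases, held 96.98% of Fzd3 in replicate 1 and 89.6% in replicate 2. Wnt7b was shared among coding transcripts: Wnt7b-202 held 52.22% and 48.6%, Wnt7b-201 held 27.45% and 30.37%, and Wnt7b-204 held 14.42% and 16.31%. In the second quantification Wnt7b-201 led in replicate 1, so which of the 2 main forms is the higher is unsure. The receptor Fzd6 was not resolved either: Fzd6-201 took 25.52% in replicate 1 and 75.07% in replicate 2, while Fzd6-202 took 39.89% and 0. By gene counts Fzd6 was level, at 285 and 312 reads.

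Exons of 7 members, Wnt5a, Wnt7b, Wnt11, Fzd5, Fzd6, Sfrp2 and Rspo3, overlap an exon of a gene on the opposite strand, and 37 members overlap none. Whether the counting used strand is not given in the sources used here, so reads of such partners may not be told apart. The partner of Wnt7b, AU022754, was at 1.61 and 0.87 TPM, far below Wnt7b.

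The rest of the pathway was read from 7 lists with 67 genes, 8 of which stand in 2 lists. Of these, 60 were detected and the median level was 14.9 TPM, against 1.42 TPM over the 44 ligand, receptor and modulator genes. Of the 66 tested, 25 were called between the libraries (37.9%, beside 26.7% of all genes), 16 higher and 9 lower in replicate 2. Among protein-coding genes tested alone, 17 were called higher and 9 lower, beside 4681 of 15289 genes called in either direction. With spike-in scaling 3 were called higher and 29 lower, so that the direction over the lists followed the scaling. Levels, which carry no such ratio, differed widely by step of the pathway.

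**Figure D5:**
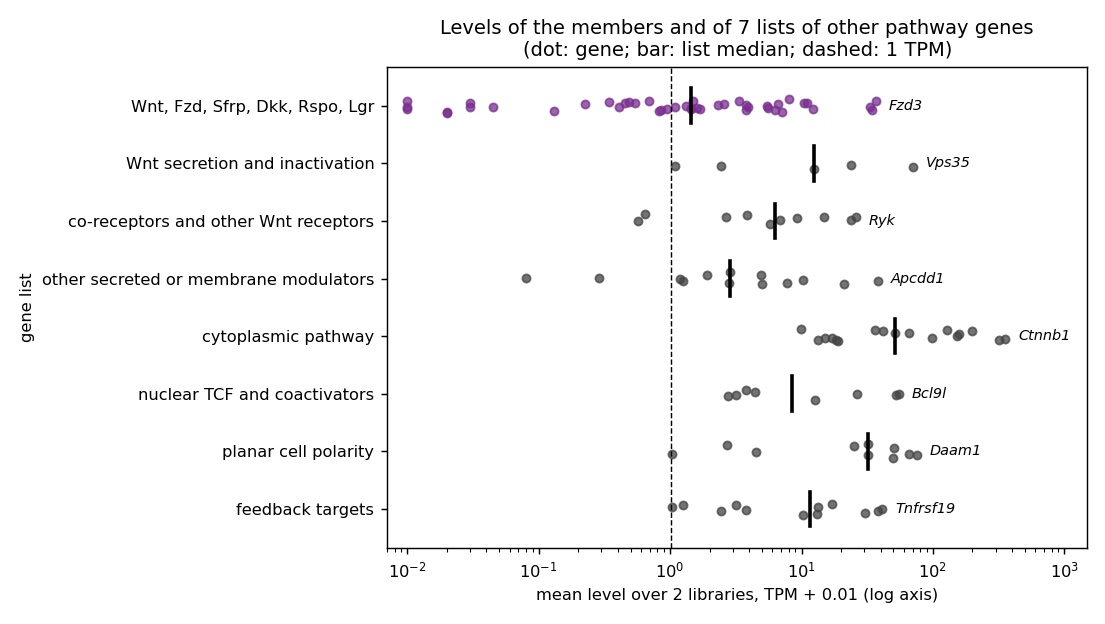
Mean level over the 2 libraries as TPM + 0.01 on a log axis for the 44 members (top row) and for 7 lists of other pathway genes. Dots are genes, thick bars list medians, the dashed line 1 TPM, and the highest gene of each row is named; the list medians run from 2.87 TPM for other modulators to 51.8 TPM for the cytoplasmic pathway.

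The cytoplasmic machinery was the most abundant step, with all 17 genes detected and a median of 51.8 TPM. Ctnnb1, which encodes beta-catenin, stood at 348.35 and 363.35 TPM, and Apc, a scaffold of the complex that degrades it, at 322.47 and 316.22 TPM. Of this list 8 genes were called higher and 1, the kinase gene Gsk3b, lower, whereas spike-in scaling gave 1 higher and 8 lower. Gsk3b was not called with DESeq2 size factors (log2 ratio -0.029, adjusted p = 0.219, exact binomial test) or in the second quantification (-0.005, adjusted p = 0.891), and both gave 10 higher and 0 lower. All 8 nuclear genes were detected, led by the coactivators Bcl9l at a mean of 55.25 ± 0.799 TPM and Bcl9 at 52.39 ± 1.83 TPM. Lef1, a DNA-binding partner of beta-catenin, was at 3.94 and 2.44 TPM and called lower (log2 ratio -0.62, adjusted p = 0.000379, exact binomial test). Bcl9l was the 1 nuclear gene called higher, whereas with spike-in scaling none was called higher and 4 lower.

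Of 10 co-receptors and other Wnt receptors, 8 were detected. Ryk, a kinase-like receptor of axons, stood at 25.77 ± 2.06 TPM and Lrp6 at 23.81 ± 2.72 TPM. Lrp5, at 6.62 and 4.84 TPM, was called lower, as were Adgra2, which serves Wnt7 signalling in brain endothelium, and Tspan12, a partner of Fzd4. None of the 10 was called higher. Spike-in scaling gave 6 lower, and in the second quantification Tspan12 was not called (log2 ratio -0.25, adjusted p = 0.0674, exact binomial test). The endothelial markers summed to 84.99 TPM in replicate 1 and 74.16 TPM in replicate 2, with 2 of 5 called lower (1 in the second quantification), and their part in these calls was not tested. Reck, the other endothelial partner for Wnt7, stood at 3.8 and 3.88 TPM and was not called.

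Of the 5 genes for secretion and inactivation of Wnts, 4 were detected. Vps35, which recycles the Wnt carrier, stood at 70.91 ± 4.74 TPM and Porcn, which adds the lipid, at 23.65 ± 2.79 TPM. Trabd2b, a protease that cuts Wnts, was at 1.33 and 0.84 TPM and called lower (log2 ratio -0.58, adjusted p = 0.00747, exact binomial test). Porcn was called higher, at 0.30 (adjusted p = 0.000594, exact binomial test), though not with spike-in scaling (adjusted p = 0.106).

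Of 13 other modulators, 10 were detected. Apcdd1, a membrane inhibitor of the pathway, led at 38.11 ± 3.44 TPM, followed by Draxin, a secreted guidance protein, at 21.17 ± 2.86 TPM. Frzb, a secreted relative of Sfrp1, was at 3.83 and 6.23 TPM and called higher (log2 ratio 0.64, adjusted p = 6.82e-05, exact binomial test). Apcdd1 was also called higher and Draxin lower. The ligases that R-spondins act on differed in level: Znrf3 stood at 10.31 ± 0.24 TPM and Rnf43 at 1.24 ± 0.0141 TPM. The reads of Rnf43 differed more than its TPM, at 41 and 71. Its log2 ratio of 0.68 was not called (adjusted p = 0.0626, exact binomial test), but was with DESeq2 size factors (adjusted p = 0.0499).

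In the planar polarity list 9 of 10 were detected, led by Daam1 at 76.09 ± 3.51 TPM and the cadherin Celsr2 at 66.12 ± 2.6 TPM. Celsr3, the partner of Fzd3 in axon tracts, stood at 50.34 ± 1.39 TPM. In this list 3 genes were called higher and 1, Vangl1, lower (log2 ratio -0.52, adjusted p = 0.00149, exact binomial test). Spike-in scaling gave none higher and 5 lower.

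All 12 feedback targets, genes that the beta-catenin branch is known to raise in many tissues, were detected. The highest were Tnfrsf19 at 41.3 ± 0.926 TPM and Apcdd1. Axin2, the most widely used readout of the branch, stood at 15.55 and 18.62 TPM. Axin2, Nkd1, Apcdd1 and Tnfrsf19 were called higher in replicate 2, and Lef1 and Ccnd1 were called lower, so the list did not move as one. With spike-in scaling Axin2 and Tnfrsf19 were not called (adjusted p = 0.144 and 0.684, exact binomial test), and Tnfrsf19 was not called with total counts either (adjusted p = 0.0867).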

How the data were processed

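The members and gene lists were chosen with earlier results of these data known. Per the labels, each library was made from 300 ng of total RNA with reduced ribosomal RNA and added ERCC spike-ins. The authors deposited gene and transcript tables against mm10, with GENCODE M21, that hold expected counts and TPM, per the file headers. Beside these stand a posterior mean TPM and a lower and upper TPM bound (a score here, as the level of the interval is not stated), per the file headers. Transcripts have their percent of the gene, also per the file headers. A second transcript table with estimated counts and TPM was deposited by the authors and is called the second or other quantification. Names of the aligner and quantifiers, and the strand setting, were not given in the sources used here. The tables do not separate alleles, and whether CAST transcripts were counted in full was not tested.

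All 55536 annotated gene identifiers matched M21. The 97 spike-in rows (0.323% and 0.351% of counts) and 26248 rows with numeric identifiers (6 and 2 reads) stayed out of library sizes and tests. Ratios divide replicate 2 by replicate 1 after TMM scaling (edgeR 4.0.16, R 4.3.3) and a prior count of 0.5, and the test used expected counts rounded to whole numbers. The SE comes from counts alone. The exact binomial test (scipy 1.17.1) took genes with 10 or more counts in total, with Benjamini-Hochberg adjustment and a threshold of 0.05, and was tested on simulated data. The simulated counts held counting error alone, so they do not show how the test treats further spread between libraries. Levels carry no test, since 1 group was sampled. Alternatives were TPM thresholds, the second quantification, posterior mean TPM, TPM over protein-coding genes, leaving out a library, other scalings (total counts, DESeq2 1.42.0, spike-ins) and other count minimums. Named were all members, the 2 highest genes of each pathway list and those called with a fold of 1.5 or more. Marker genes were named from lists that moved in the direction of a member. The other pathway genes named, such as Axin2, Lrp5 and Celsr3, were chosen after their values were seen. Promoter sequences are from RefSeq (GRCm38.p6). The promoter table matched 29 of 44 members.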

Additional observations from a re-analysis of the deposited data

How the results depend on the processing

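No paired analysis was possible because the series has a single group, so no 2 groups share replicate numbers. Leaving out a library gives no ratio between libraries, so this alternative was not run for the calls. The number of members detected, 22, lay between 17 (2 TPM) and 29 (0.5 TPM), and was 27 in the second quantification and 28 with TPM rescaled over protein-coding genes; it was 25 without replicate 1 and 24 without replicate 2. On coding transcripts alone, an alternative chosen after seeing the data, it was 22. Pathway genes detected ranged from 57 to 64. The highest member was the same in all 6 families under every alternative run. The leading transcript was the same for 20 of 22 genes in the second quantification, Wnt7b and Fzd6 being the exceptions, and for 21 without replicate 2. Of these 22 genes, 11 have 1 annotated transcript, so theirs could not change. Of the 13 members called, 9 were called in the same direction under all 7 alternatives, and Wnt7b, Sfrp1, Sfrp2 and Lgr4 were lost with spike-in scaling alone. The other count minimums and the test on protein-coding genes alone kept the same counts and scaling. They could change the adjusted p but not the ratio or its direction. The number called ranged from 11 (spike-in scaling) to 14 (total counts). The median log2 ratio of the members, 0.084, was -0.063 with spike-in scaling, where the median of all genes also moved by -0.147. A change of scaling moves all ratios alike, so the gap of 0.085 to the median of all genes could not change with it. This gap was 0.08 in the second quantification and 0.065 among protein-coding genes alone. Genes under 10 counts in total, 9 of the 44, were beyond the depth of the test, and 2 libraries allow no estimate of the spread between animals beyond their range.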
